A study of Mus musculus with 18 samples.

Results

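Regulatory T cells (Treg) that carry the surface receptor neuropilin 1 (Nrp1) were compared with conventional T cells (Tconv) in mice labelled CD28-deficient. The comparison used 6 of the 18 libraries of the study: 3 of CD28-deficient Nrp1+ Treg, which the labels call thymic Treg, and 3 of CD28-deficient Tconv. Both populations were sorted from the spleen of CD28-/-Foxp3EGFP mice on the C57BL/6 background, so the controls carried the same CD28 allele. The comparison is between cell types within that genotype, and alone it does not measure effects of CD28 loss. Whether the difference depended on genotype was tested separately, as described below. The matching wild type groups, 3 libraries each, came from Foxp3EGFP mice. The study had 6 groups in all, the other two being Nrp1-negative Treg of each genotype. The sources used here do not state mouse age, the sort gates, or whether a library came from 1 animal or a pool. The replicates are not said to be separate animals, so p-values measure only the spread between these samples.

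Treg restrain immune responses. They are defined by the transcription factor Foxp3, and many of them carry the high-affinity IL-2 receptor and the inhibitory receptor CTLA-4. Their lineage is known to depend on antigen receptor signals, on IL-2 acting through STAT5, and on costimulation through CD28, the receptor for CD80 and CD86 that acts beside the antigen receptor. Nrp1, a coreceptor for semaphorins and growth factors, is widely used to mark Treg of thymic origin in mice.

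Of the 26665 genes listed, 11673 reached an FPKM (fragments normalised to transcript length and library size) of 1 in 3 or more of the 6 libraries and were tested. A gene can pass this filter through 1 group alone, so the tested members of a list favour those that differ. All differences are in log2(FPKM + 1), Treg minus Tconv, given as the limma estimate ± SE, a scale that understates the change of low genes. A gene was called where its Benjamini-Hochberg adjusted p over all tested genes was under 0.05, and individual values are FPKM in the order of replicates 1, 2 and 3. In bulk libraries, fewer cells that express a gene and less RNA of it per cell cannot be told apart.

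The sort markers separated the groups, and both replicate 3 libraries stood nearer to the other population. Foxp3 (chromosome X, 7573644 to 7595245, GRCm38) was at 101, 105 and 87.9 FPKM in Treg and at 0.0670, 0.205 and 21.1 in Tconv. Nrp1 (chromosome 8, 128358604 to 128503363) was at 61.5, 74.4 and 58.0 in Treg and at 0.627, 0.841 and 12.8 in Tconv. Tconv replicate 3 therefore held both markers far above replicates 1 and 2 of its group, although below every Treg library. Positions were measured in untransformed FPKM, between the means of replicates 1 and 2 of each group. In the fit without both replicate 3 libraries 920 genes were called higher. Over these Tconv replicate 3 lay a median of 18.7% of the way to Treg (quartiles 12.7% and 24.8%). Treg replicate 3 lay a median of 22.1% of the way to Tconv over the 239 genes called lower in that fit. Over the same 239 genes Tconv replicate 3 lay 23.0% of the way to Treg. Treg replicate 3 lay 11.3% of the way to Tconv over the 920. Replicates 1 and 2 both chose these genes and set the end points, so part of each position can come from that choice. No other library was placed this way for comparison. The part that admixed cells have in these positions was not tested, and the effect of leaving both libraries out was measured for every gene. Of the 1379 genes called below, the difference became larger by over 0.5 log2 units in 101 and by over 1 in 13, and smaller by over 0.5 in 0. The value without both libraries is given for named genes that moved by over 1 unit. It was 6.52 for Foxp3, against 5.02 ± 0.73, adjusted p = 0.000105 with all libraries, and 5.31 for Nrp1, against 4.24 ± 0.53, adjusted p = 2.57e-05. Cd28 was at 71.2, 76.3 and 80.6 in Treg and at 65.7, 117 and 84.0 in Tconv, groups that overlapped (-0.18 ± 0.31, adjusted p = 0.908). In wild type the means were 60.05 ± 2.75 in Treg and 61.3 ± 25.2 in Tconv (SD, n = 3). Cd28 was thus not lower in the libraries labelled deficient. A value over the whole gene does not check an allele that may leave a transcript, so the genotype rests on the labels.

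The libraries summed to 514726 to 650609 FPKM and had 10912 to 11651 genes at 1 or more. The small RNA locus Mir5105 took 4.46% to 26.9% of that sum, the most in Tconv replicate 3. Read depth is unknown, since the files give no counts. The CD4 T cell markers summed to 1918 to 1969 FPKM in Treg and 1522 to 1762 in Tconv, and 3 of 7 were called higher in Treg (1 without both replicate 3 libraries). Of the markers of other cell types, all 4 of plasma cells and all 4 of NKT and gamma-delta T cells were under 1 FPKM in all 6 libraries, as were 8 of 12 of B cells, 11 of 20 of myeloid cells, 8 of 10 of NK cells, 7 of 10 of erythroid cells and platelets and 1 of 4 of CD8 T cells. None of these markers was at 0 in all 6. Summed myeloid markers were 19.4 to 58.6 in Treg and 17.5 to 22.4 in Tconv, summed B cell markers 8.85 to 11.9 and 3.07 to 5.78, and summed NK cell markers 3.18 to 6.65 in Treg and 8.202 to 13.0 in Tconv. Within these lists Lyz2, the lysozyme of myeloid cells, was called higher in Treg (1.56 ± 0.49, adjusted p = 0.0469), as was the B cell receptor chain gene Cd79b (1.61 ± 0.24, adjusted p = 0.000111), at 4.79, 4.79 and 4.29 against 0.228, 0.986 and 1.56. Lyz2 was not called without both replicate 3 libraries (adjusted p = 0.179), nor without Treg replicate 1, Treg replicate 3, Tconv replicate 1 or Tconv replicate 2. The NK cell gene Prf1 (-1.77 ± 0.25, adjusted p = 6.96e-05) and the CD8 T cell gene Cd8b1 (-0.79 ± 0.16, adjusted p = 0.00221) were lower in Treg. The part of other cells in the results was not tested.

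Most of the genes that differed were higher in Treg. Of 11673 tested genes 1379 (11.8%) were called, 1096 (9.39%) higher and 283 (2.42%) lower in Treg. The shares of 9.39% higher and 2.42% lower are those to set beside the counts of every gene list below. In all 1379 the values of the groups did not overlap, which held for 26.3% of all tested genes with Treg above Tconv and for 10.9% with Treg below. At least 1 log2 unit separated the groups in 711 genes called higher and 133 called lower, and at least 3 units in 45 and 6. Among the genes called higher, 231 were under 1 FPKM in all Tconv libraries, and 436 were in Tconv replicates 1 and 2. Without both replicate 3 libraries 1159 genes were called (9.93%), 920 (7.88%) higher and 239 (2.05%) lower, and 1143 of the 1379 calls were kept (82.9%), none with the other sign. Without Tconv replicate 3 alone 1054 (9.03%) were higher, and without Treg replicate 3 alone 966 (8.28%). The genes at least 2 units higher without both numbered 272, against 192 with all libraries. The split depended on the kind of scaling. Quantile normalization, which shifted the median difference of all genes from 0.09 to -0.05, called 1361 genes higher (11.7%) and 1429 lower (12.2%). It lowered the share of calls that were higher from 79.5% to 48.8%, while 1278 of the original calls were kept (92.7%) and none changed sign. Rescaling the libraries without microRNA and small nucleolar RNA symbols kept the split. It called 1590 genes higher and 465 lower of 11831 tested, so that 77.4% of the calls were higher. Without Tconv replicate 2 the genes called lower fell in number from 283 to 186.

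**Figure D1:**
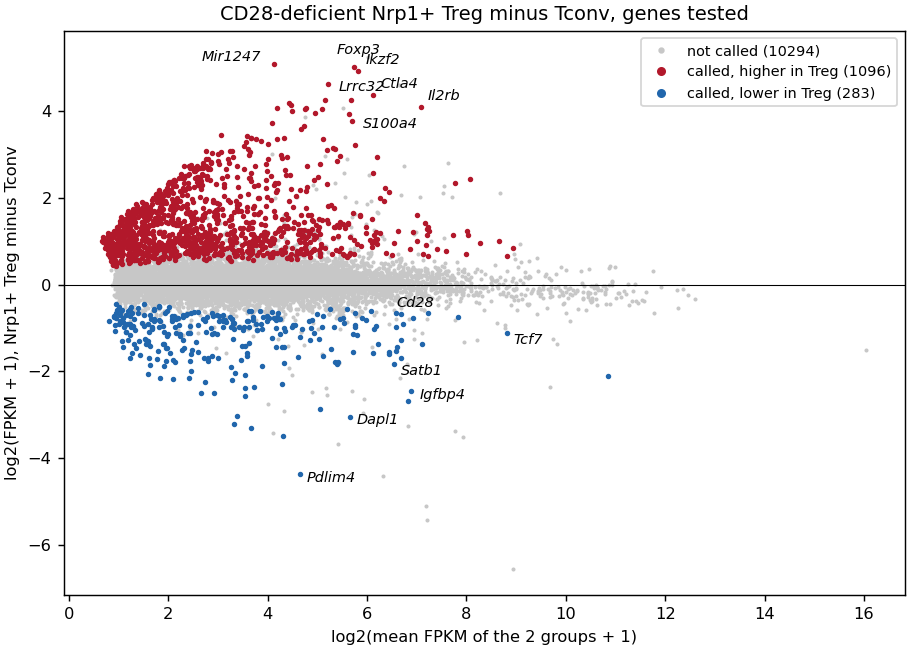
Difference between CD28-deficient Nrp1+ Treg and Tconv (log2(FPKM + 1), y axis) against the log2 of the mean FPKM of both groups plus 1 (x axis), each point 1 of 11673 tested genes. Red points are the 1096 genes called higher in Treg and blue points the 283 called lower. Foxp3, Ikzf2 and Ctla4 lie among the highest, and Pdlim4 is the lowest called gene.

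Core Treg genes were higher in Treg than in Tconv, both of them CD28-deficient. Of 34 tested genes of a Treg core list, 32 were called higher and 0 lower, with a median difference of 2.74 against 0.09 over all tested genes. Without both replicate 3 libraries it was again 32, with a median of 3.26. The list holds genes known from Treg, so its direction was fixed by the choice. The exceptions were Prdm1 (0.26 ± 0.21, adjusted p = 0.676), which encodes a transcriptional repressor, and Tgfb1 (0.53 ± 0.17, adjusted p = 0.0612), the cytokine TGF-beta 1. Il10 was not tested, being under the filter.

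Among transcription factors, Ikzf2 (Helios, chromosome 1, 69531214 to 69687245), a zinc finger protein of the Ikaros family, was at 96.5, 120.2 and 96.1 FPKM in Treg and at 0.277, 0.521 and 20.5 in Tconv. The difference was 4.91 ± 0.74, adjusted p = 0.000135, and 6.29 without both replicate 3 libraries. Its relative Ikzf4 (Eos), a partner of Foxp3, was at 34.0, 38.7 and 31.0 against 0.627, 1.49 and 8.67 (3.38 ± 0.50, adjusted p = 0.000113). In contrast Ikzf1, the founding member of the family, was lower, at 60.3, 70.9 and 87.3 against 121, 168 and 122 (-0.90 ± 0.24, adjusted p = 0.0174). The groups of all 3 genes were separate, while Ikzf3 (0.46 ± 0.42) and Ikzf5 (0.06 ± 0.34) were not called. The Ikzf1 call was lost without Treg replicate 1, Treg replicate 2 or Tconv replicate 2. Irf4, a factor induced by antigen receptor signals, was at 13.4, 13.4 and 13.1 against 1.01, 1.32 and 4.12 (2.31 ± 0.29, adjusted p = 2.83e-05). Maf and Bhlhe40, which regulate cytokine genes, differed by 2.89 ± 0.38 and 3.99 ± 0.56. Gata3 was also higher (1.30 ± 0.22), at 60.4, 73.0 and 62.2 against 19.7, 26.2 and 33.2.

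The IL-2 receptor chains gave some of the largest differences. Il2ra (chromosome 2, 11642807 to 11693193), the alpha chain CD25, was at 94.2, 99.8 and 79.8 in Treg and at 1.06, 1.21 and 24.0 in Tconv (4.25 ± 0.65, adjusted p = 0.000146). Il2rb, the signalling beta chain, was at 256, 280.5 and 199.7 against 5.11, 6.86 and 59.5 (4.10 ± 0.56, adjusted p = 5.84e-05). Without both replicate 3 libraries the differences were 5.52 and 5.28. In both genes Tconv replicate 3 was the only Tconv library above 10 FPKM, and still below all Treg libraries. The common gamma chain Il2rg was at 273, 266 and 288 against 241, 267 and 249 and was not called (0.13 ± 0.18, adjusted p = 0.872). Downstream, the kinase gene Jak3 was higher (1.03 ± 0.20, adjusted p = 0.00118), whereas Jak1 (-0.20 ± 0.31), Stat5a (0.71 ± 0.23) and Stat5b (0.42 ± 0.21) were not called. Feedback inhibitors induced by STAT5 were higher: Socs2 by 3.43 ± 0.41, adjusted p = 1.88e-05, Cish by 2.84 ± 0.34, adjusted p = 2.18e-05 and Socs1 by 1.38 ± 0.29, adjusted p = 0.00278. Cish was at 74.7, 73.0 and 64.9 against 5.6004, 6.07 and 20.7. The kinase gene Pim1 was higher (1.43 ± 0.19) and its relative Pim2 lower (-0.63 ± 0.20, adjusted p = 0.0471), the latter not called without both replicate 3 libraries (adjusted p = 0.0741), nor without any single library other than Tconv replicate 3, nor with a block on the replicate pairs (adjusted p = 0.0855). In this list of 20 tested genes 11 were higher and 1 lower (median 0.94). Il7r, the receptor chain for IL-7, was at 117, 138 and 133 against 148, 229 and 145, so that every Treg library was below Tconv, but it was not called (-0.40 ± 0.33, adjusted p = 0.675).

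**Figure D2:**
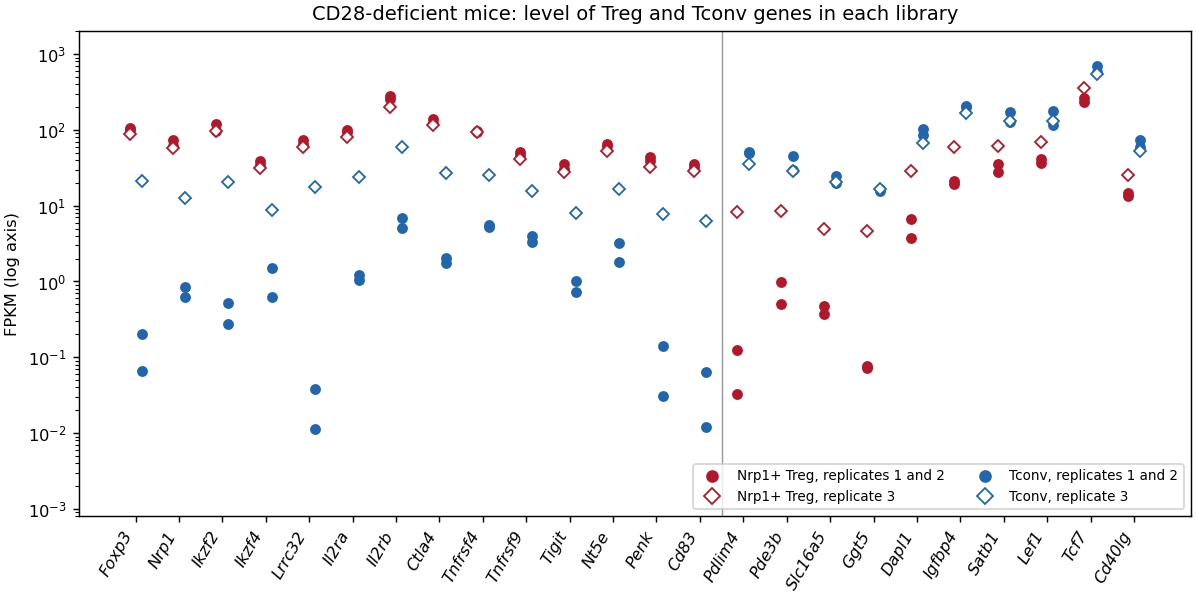
FPKM (log axis) of 24 genes in each library of CD28-deficient Nrp1+ Treg (red) and Tconv (blue), with replicate 3 of each group as open diamonds. Left of the line are genes called higher in Treg and right of it genes called lower. For the genes on the left Tconv replicate 3 lies between the other Tconv libraries and Treg, as for Foxp3 at 21.1 against 0.067 and 0.205. Among the genes on the right Treg replicate 3 is the Treg library nearest to Tconv.

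Receptors and ligands of the CD28 and B7 family were mostly higher in Treg. Of 16 tested members 13 were called higher (12 without both replicate 3 libraries) and 0 lower, with a median of 1.35. Over all tested genes the shares were 9.39% and 2.42%. Ctla4 (chromosome 1, 60887000 to 60915832), the inhibitory receptor for CD80 and CD86, was at 125, 139 and 116 in Treg and at 1.76, 2.05 and 27.3 in Tconv (4.36 ± 0.59, adjusted p = 4.84e-05, and 5.52 without both replicate 3 libraries). Icos, an activating relative of CD28, was at 34.7, 35.1 and 31.3 against 11.3, 14.3 and 15.5 (1.25 ± 0.22, adjusted p = 0.000703). The inhibitory receptor genes followed, with Tigit at 30.2, 35.1 and 27.8 against 0.726, 1.0002 and 7.90 (3.35 ± 0.41, adjusted p = 2.47e-05). Pdcd1 (PD-1) was at 23.1, 23.1 and 19.0 against 0.960, 1.41 and 7.35 (2.73 ± 0.40, adjusted p = 0.000111) and Lag3 at 9.36, 9.81 and 8.27 against 0.353, 0.883 and 2.48 (2.29 ± 0.28, adjusted p = 2.27e-05). Treg also had more of the ligands, among them Pdcd1lg2 (PD-L2), at 7.33, 7.30 and 6.74 against 0.0462, 0.195 and 1.60 (2.46 ± 0.29, adjusted p = 1.88e-05). Cd200, a ligand of an inhibitory myeloid receptor, differed by 2.35 ± 0.24, adjusted p = 6.15e-06. The CD28 and CTLA-4 ligand genes Cd86 and Cd80 were higher too, by 1.94 ± 0.32 and 1.22 ± 0.15. Cd80 was listed at 0, 0.0310 and 0.376 in Tconv. Btla (0.26 ± 0.26) and Cd200r1 (0.59 ± 0.26) were not called.

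Of 13 TNF receptor superfamily genes tested, 7 were called higher (6 without both replicate 3 libraries) and 1 lower (median 0.87). Tnfrsf4 (OX40), a costimulatory receptor, was at 96.5, 93.2 and 92.4 in Treg and at 5.22, 5.55 and 25.2 in Tconv (3.22 ± 0.38, adjusted p = 1.63e-05). Tnfrsf9 (4-1BB) was at 50.5, 46.2 and 41.7 against 3.28, 3.95 and 15.5 (2.74 ± 0.36, adjusted p = 3.56e-05), and Tnfrsf18 (GITR) at 147, 142 and 128 against 23.4, 22.5 and 55.4 (2.14 ± 0.28, adjusted p = 3.35e-05). Tnfrsf1b (TNF receptor 2) was at 44.7, 43.9 and 43.0 against 5.39, 6.99 and 15.5 (2.25 ± 0.29, adjusted p = 3e-05). The Treg libraries lay close together for this gene, with a mean of 43.9 ± 0.872 against 9.30 ± 5.44 (SD, n = 3). Tnfrsf8 (CD30) and Tnfrsf25 (DR3) were higher by 1.70 ± 0.27 and 1.08 ± 0.21. The exception was Tnfrsf1a (TNF receptor 1), which carries a death domain and was lower, at 10.5, 11.3 and 14.6 against 22.3, 23.5 and 19.6 (-0.81 ± 0.20, adjusted p = 0.0102). The Tnfrsf1a call was lost without Treg replicate 1, Treg replicate 2 or Tconv replicate 2. Cd27, abundant in both groups, was not called (0.40 ± 0.20).

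Single genes of TGF-beta activation and most genes of the adenosine list were higher. Lrrc32 (GARP, chromosome 7, 98489283 to 98502181), which anchors latent TGF-beta at the cell surface, was at 72.7, 65.2 and 60.3 in Treg and at 0.0380, 0.0113 and 17.8 in Tconv (4.63 ± 0.73, adjusted p = 0.000192). Without both replicate 3 libraries the difference was 6.09. Itgb8, the integrin chain that helps release active TGF-beta, was at 4.57, 7.67 and 6.41 against 0.0334, 0.0150 and 1.26 (2.41 ± 0.32, adjusted p = 4e-05). The coreceptor gene Tgfbr3 was lower, at 1.96, 2.51 and 6.41 against 13.1, 24.0 and 15.9 (-2.09 ± 0.36, adjusted p = 0.000491). These were the calls among 15 tested genes of TGF-beta activation and signalling, 2 higher and 1 lower (9.39% and 2.42% over all tested genes). The cytokine gene Tgfb1 and the signalling receptors Tgfbr1 (1.07 ± 0.34, adjusted p = 0.0537) and Tgfbr2 (-0.61 ± 0.24, adjusted p = 0.155) were not called. The counts were 6 higher and 3 lower with quantile normalization. In the adenosine list 6 of 8 were higher (4 without both replicate 3 libraries). Nt5e (CD73), which makes adenosine from AMP, was at 62.0, 65.0 and 52.3 against 1.80, 3.18 and 16.7 (3.35 ± 0.47, adjusted p = 6.93e-05). Entpd1 (CD39), which supplies the AMP, was at 4.41, 5.12 and 4.63 against 0.0913, 0.0348 and 1.08 (2.10 ± 0.25, adjusted p = 1.71e-05). The receptor gene Adora2a (1.21 ± 0.18) and the transporter gene Slc29a1 (1.20 ± 0.21) followed. Adk and Enpp1 were called with all libraries (adjusted p = 0.049 and 0.0113) and not without both replicate 3 libraries (adjusted p = 0.155 and 0.0561).

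The effector Treg list, genes of activated and tissue-homing Treg, had 23 of 26 tested members higher and 0 lower (median 2.67, and again 23 without both replicate 3 libraries). S100a4, a calcium-binding protein of motile cells, was at 132, 98.0 and 56.1 in Treg and at 5.89, 3.19 and 9.14 in Tconv (3.78 ± 0.39, adjusted p = 6.52e-06). Its relative S100a6 was at 44.7, 31.8 and 23.4 against 3.46, 1.80 and 4.86 (2.99 ± 0.38, adjusted p = 2.95e-05). Both were highest in Treg replicate 1 and lowest in Treg replicate 3. In wild type, mean S100a4 was 127 ± 40.9 in Treg and 64.9 ± 37.4 in Tconv (SD, n = 3). It was 6.07 ± 2.98 in CD28-deficient Tconv. For S100a6 these means were 49.7 ± 20.2, 36.5 ± 19.3 and 3.37 ± 1.53. Neither gene was called between wild type Treg and Tconv by limma (adjusted p = 0.104 and 0.559). Ahnak, a giant scaffold protein, was at 52.3, 69.0 and 66.1 against 2.42, 5.50 and 16.8 (3.10 ± 0.55, adjusted p = 0.000618). Itgb1, the integrin beta 1 chain, was at 134, 139.9 and 108 against 9.44, 14.3 and 27.9 (2.94 ± 0.30, adjusted p = 5.33e-06), and Itgae (CD103), which binds E-cadherin, at 14.5, 10.1 and 8.53 against 0.0538, 0.0672 and 1.44 (3.07 ± 0.32, adjusted p = 6.15e-06). Id2 (0.13 ± 0.18) and Cxcr6 (0.34 ± 0.23) were not called.

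The 15 largest differences upwards included genes with roles outside classical immunity. Penk, the precursor of enkephalin opioid peptides, was at 44.0, 39.3 and 32.6 in Treg and at 0.1396, 0.0312 and 7.67 in Tconv (4.18 ± 0.54, adjusted p = 3.45e-05). Rln3, which encodes the peptide hormone relaxin 3, was at 60.4, 61.7 and 55.5 against 0.508, 0.551 and 20.1 (4.04 ± 0.66, adjusted p = 0.000296). Nrn1 (neuritin), a surface-anchored protein first known from neurons, was at 59.3, 61.2 and 46.5 against 0.789, 1.64 and 9.40 (3.94 ± 0.44, adjusted p = 1.09e-05). Coro2a, a coronin that binds actin, was at 50.0, 53.5 and 42.6 against 0.328, 0.507 and 11.6 (4.08 ± 0.58, adjusted p = 7.53e-05). Serpina3g, an inhibitor of proteases with close paralogs, differed by 3.72 ± 0.42, adjusted p = 1.08e-05. Cd83, a surface protein of activated cells, was at 35.4, 32.3 and 28.8 against 0.0119, 0.0649 and 6.199 (4.06 ± 0.51, adjusted p = 2.57e-05). Without both replicate 3 libraries the differences were 5.30 for Penk, 5.34 for Rln3, 5.22 for Coro2a and 5.07 for Cd83. In each of these genes Tconv replicate 3 was the highest Tconv library and lay below every Treg library.

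Regulators of G protein signalling divided. Rgs16 was at 30.4, 41.5 and 47.5 in Treg and at 0.218, 0.383 and 6.16 in Tconv (4.13 ± 0.57, adjusted p = 5.74e-05), and Rgs1 at 88.8, 98.6 and 84.4 against 2.62, 2.61 and 15.7 (3.92 ± 0.47, adjusted p = 2.17e-05). Rgs9 was higher by 2.69 ± 0.33 and Rgs3 by 0.85 ± 0.17. Rgs11 was lower, at 2.61, 1.89 and 3.92 against 11.4, 11.7 and 10.3 (-1.70 ± 0.19, adjusted p = 1.17e-05), so that 4 of 9 tested members were higher and 1 lower. Among feedback inhibitors of MAP kinase signalling 5 of 12 were higher (4 without both replicate 3 libraries) and 1 lower. Dusp4 was at 19.7, 25.8 and 23.4 against 0.431, 0.393 and 5.31 (3.36 ± 0.46, adjusted p = 5.36e-05) and Spry1 at 18.5, 21.5 and 15.9 against 1.39, 1.13 and 4.79 (2.66 ± 0.35, adjusted p = 3.46e-05). Dusp10 was lower (-0.80 ± 0.20, adjusted p = 0.0117), though not called without Treg replicate 1 or Tconv replicate 2. In the list of semaphorins, plexins and neuropilins, which leaves out Nrp1 itself, 4 of 10 were higher and 2 lower. Plxnc1 was higher by 1.29 ± 0.22 and Sema6d by 1.05 ± 0.10, whereas Sema4a was lower, at 16.5, 17.4 and 25.1 against 55.6, 56.0 and 56.5 (-1.49 ± 0.22, adjusted p = 9.84e-05), as was Sema4f (-0.83 ± 0.16). The count of 4 became 2 without Treg replicate 2, Treg replicate 3, Tconv replicate 1 or Tconv replicate 2.

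Components of the antigen receptor pathway had calls in both directions. Of 32 tested members 1 was higher and 3 lower (median 0.09, the same as over all genes). Over all tested genes 9.39% were called higher and 2.42% lower, the shares to set beside each count in this paragraph. Cd5, a negative regulator whose level tracks receptor signalling in the thymus, was at 241, 243 and 241 in Treg and at 127, 139 and 161 in Tconv (0.77 ± 0.18, adjusted p = 0.00563). The adaptor gene Themis (-1.44 ± 0.40, adjusted p = 0.0228) and the zeta chain gene Cd247 (-0.65 ± 0.18, adjusted p = 0.018) were lower, and were not called without both replicate 3 libraries (adjusted p = 0.0501 and 0.0519). The count of 3 lower was 1 without both of those, without Treg replicate 1, without Treg replicate 2 or without Tconv replicate 2. With quantile normalization the counts were 5 higher and 7 lower. Immediate early genes, which respond within minutes to stimulation or handling, had 3 of 18 higher: Irf4, Egr2 (1.25 ± 0.22, adjusted p = 0.000632) and the nuclear receptor gene Nr4a2 (1.68 ± 0.44, adjusted p = 0.0146). Nr4a2 was not called without both replicate 3 libraries (adjusted p = 0.0811). Of 13 heat shock and stress genes 0 were called by limma, with 1 at an unadjusted p under 0.05. Hspa1a was lowest in replicate 3 of each group, at 21.9, 24.97 and 11.9 in Treg and 12.6, 12.3 and 2.25 in Tconv (1.23 ± 0.78, adjusted p = 0.497).

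Most NF-kB genes were higher in Treg. NF-kB is a family of dimeric factors held inactive by inhibitors that are themselves its targets, and Nfkb2 and Relb form its noncanonical arm. Of 19 tested subunits, inhibitors and targets, 13 were higher (11 without both replicate 3 libraries) and 0 lower, with a median of 1.14. Nfkb2 (chromosome 19, 46304320 to 46312385) was at 50.4, 51.1 and 46.3 in Treg and at 14.1, 15.6 and 22.1 in Tconv (1.48 ± 0.18, adjusted p = 2.51e-05). Relb was at 33.7, 33.5 and 31.3 against 12.9, 13.5 and 16.2 (1.16 ± 0.21, adjusted p = 0.000663). The atypical inhibitor Bcl3 was at 28.7, 22.7 and 23.1 against 11.5, 7.52 and 11.3 (1.23 ± 0.21, adjusted p = 0.000374). The adaptor gene Traf1 was at 95.7, 87.4 and 84.8 against 29.3, 33.9 and 43.8 (1.32 ± 0.22, adjusted p = 0.000416) and Tank at 54.2, 57.8 and 58.6 against 18.1, 21.1 and 27.7 (1.33 ± 0.26, adjusted p = 0.00148). The adhesion gene Icam1, a known target, was at 32.5, 28.2 and 25.9 against 5.53, 4.45 and 7.18 (2.17 ± 0.23, adjusted p = 6.97e-06). Rel (1.22 ± 0.47, adjusted p = 0.128) and Tnfaip3 (1.67 ± 0.66, adjusted p = 0.14) were also above Tconv in every library without passing the test, and Rela was not called (0.20 ± 0.18).

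The promoter windows of called genes were searched for sequence motifs, from 250 bases before to 50 after each start, in RefSeq sequences of GRCm38.p6. Of the tested genes, 7679 had a window, among them 754 called higher and 191 called lower. The NF-kB motif, spelled GGG, 2 bases of any kind and TTTCC and read on either strand, was in 4.38% of the windows of genes called higher, 1.05% of those called lower and 2.12% of all tested. The narrower form with AA as the middle bases, a subset of that motif, was in 0.398%, 0% and 0.143%. The stretches below, in capitals where the motif lies, show it in 2 genes described above, chosen after the matches were seen, at Nfkb2 before each of 2 annotated starts and at Tnfrsf9 before one.
Nfkb2, chr19:46304716-46304736, plus strand: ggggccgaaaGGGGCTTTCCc
Nfkb2, chr19:46305695-46305724, plus strand: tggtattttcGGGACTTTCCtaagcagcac
Tnfrsf9, chr4:150927946-150927975, plus strand: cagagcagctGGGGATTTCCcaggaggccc
Each stretch also overlaps a 5′ UTR exon of another transcript of its gene in GENCODE release M21. Within the NF-kB list the motif was in 3 of 9 genes called higher that had a window (Nfkb2, Nfkbia and Tank, of which Nfkbia was not called without both replicate 3 libraries) and in 2 of 5 not called (Rel and Tnfaip3). For the other motifs, also read on both strands, the shares are given in the order of genes called higher, called lower and tested. They were the STAT motif TTCNNNGAA (10.3%, 3.14% and 8.57%), the forkhead motif GTAAACA (3.98%, 3.14% and 3.10%) and the TCF and LEF motif CTTTGAA (5.04%, 5.24% and 4.21%). The AP-1 motif TGAGTCA was in 5.97%, 4.71% and 3.97%, the RUNX motif TGTGGTT in 6.37%, 3.66% and 4.74%, and the ETS motif GGAAGT in 31.6%, 31.4% and 34.6%. No test was made of these shares, and a match is not evidence of binding.

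Survival genes were mixed. Of 21 tested members of the BCL2 family and death receptors, 9 were higher (8 without both replicate 3 libraries) and 1 lower. Bcl2l1 (BCL-XL), which protects cells, was at 13.5, 13.3 and 12.1 in Treg and at 4.99, 4.85 and 7.28 in Tconv (1.08 ± 0.19, adjusted p = 0.00058). The A1 genes Bcl2a1a, Bcl2a1b and Bcl2a1d were higher by 1.77 ± 0.18, 2.32 ± 0.26 and 2.46 ± 0.25, but these near-identical copies can share reads. Pmaip1 (NOXA), which promotes cell death, was higher too, at 8.66, 9.22 and 6.64 against 0.386, 0.404 and 0.957 (2.54 ± 0.23, adjusted p = 2.53e-06). Bcl2 was at 37.9, 43.4 and 35.4 against 19.2, 30.1 and 29.6, with separate groups, and was not called (0.57 ± 0.31, adjusted p = 0.365). Fasl was the call in the other direction (-0.72 ± 0.19), lost without Treg replicate 1, Treg replicate 2 or Tconv replicate 2.

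The genes lower in Treg were led by Pdlim4 (chromosome 11, 54054928 to 54069014), an actin-associated PDZ and LIM domain protein. It was at 0.126, 0.0332 and 8.14 in Treg and at 51.5, 48.9 and 35.4 in Tconv (-4.38 ± 0.56, adjusted p = 3.23e-05). Pde3b, a phosphodiesterase that breaks down cAMP, was at 0.499, 0.998 and 8.62 against 29.3, 45.4 and 28.7 (-3.50 ± 0.51, adjusted p = 9.76e-05). The transporter gene Slc16a5 was at 0.369, 0.472 and 4.89 against 19.6, 24.4 and 20.8 (-3.30 ± 0.40, adjusted p = 2.17e-05) and the gamma-glutamyltransferase gene Ggt5 at 0.0731, 0.0760 and 4.62 against 15.6, 16.8 and 16.5 (-3.21 ± 0.42, adjusted p = 3.4e-05). For all 4 genes Treg replicate 3 was far above Treg replicates 1 and 2, and below every Tconv library. Without both replicate 3 libraries the differences were -5.57, -4.44, -4.01 and -4.001. Klrd1 (CD94), a lectin receptor chain, was at 0.291, 0.574 and 3.56 against 15.3, 27.0 and 10.05 (-3.03 ± 0.39, adjusted p = 2.95e-05). Vipr1, a receptor for vasoactive intestinal peptide, was at 4.07, 4.40 and 16.5 against 54.5, 62.9 and 50.9 (-2.86 ± 0.37, adjusted p = 3.04e-05). Acvrl1, a type I receptor of the TGF-beta superfamily, was at 0.737, 0.657 and 2.94 against 11.9, 12.7 and 10.4 (-2.49 ± 0.25, adjusted p = 5.32e-06). Also among the 15 largest were Atp8b4 (-2.49 ± 0.37), Als2cl (-2.45 ± 0.31), Tmie (-2.38 ± 0.27), the endosomal adaptor gene Appl2 (-2.37 ± 0.33), Lypd6b (-2.25 ± 0.26) and the heparan sulfate enzyme gene Hs3st3b1 (-2.19 ± 0.30). Of 23 tested genes known as low in Treg 14 were lower (13 without both replicate 3 libraries). Ifng, a cytokine gene on that list, was higher and is described below.

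Naive and resting T cell genes were lower or not called. Of 24 tested, 11 were lower (also without both replicate 3 libraries) and 0 higher, with a median of -0.64. Dapl1 (chromosome 2, 59484653 to 59505020) was at 3.73, 6.74 and 28.4 in Treg and at 86.5, 102 and 67.6 in Tconv (-3.06 ± 0.53, adjusted p = 0.000476), and Igfbp4, a secreted binding protein of insulin-like growth factors, at 19.2, 20.9 and 60.04 against 208, 202 and 167 (-2.68 ± 0.35, adjusted p = 3.4e-05). The chromatin organiser Satb1 was at 27.4, 36.0 and 60.4 against 127, 169.9 and 131 (-1.83 ± 0.32, adjusted p = 0.00056). The partner factors Lef1 and Tcf7, which maintain naive T cells, differed by -1.53 ± 0.29, adjusted p = 0.00117 and by -1.12 ± 0.22, adjusted p = 0.0018. Tcf7 stayed abundant in Treg, at 231, 267 and 355 against 579, 697 and 554. Ccr7, the chemokine receptor for entry into lymph nodes, was at 60.1, 68.8 and 99.6 against 181, 240.2 and 170.2 (-1.38 ± 0.24, adjusted p = 0.000488). S1pr1, the receptor for exit from lymphoid organs, was not called (-0.32 ± 0.23, adjusted p = 0.579). The surface antigen gene Ly6c1, which has close paralogs, was lower (-1.56 ± 0.25), as were Rapgef4 (-1.59 ± 0.34) and Fam101b (-1.79 ± 0.32).

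Some other homing receptors were higher. Of 20 tested chemokine receptor and homing genes 8 were higher, 1, Ccr7, was lower and 11 were not called. Gpr15, a receptor for homing to the colon, was at 16.0, 11.97 and 15.01 in Treg and at 0.201, 0.0917 and 1.10 in Tconv (3.44 ± 0.34, adjusted p = 4.86e-06). Ccr6 was at 15.3, 14.8 and 9.18 against 0, 0.550 and 2.26 (3.01 ± 0.45, adjusted p = 0.000119), Ccr2 at 13.6, 10.5 and 6.75 against 0.446, 0.606 and 0.826 (2.76 ± 0.29, adjusted p = 8.08e-06), and Ccr4 at 18.5, 18.2 and 13.6 against 0.846, 0.925 and 4.16 (2.74 ± 0.40, adjusted p = 0.000105). Cxcr3 (chromosome X, 101731535 to 101734269), the receptor for chemokines induced by interferon-gamma, was at 35.7, 33.9 and 36.1 against 1.78, 2.64 and 9.52 (2.93 ± 0.35, adjusted p = 2.08e-05). The Tfh receptor Cxcr5 was at 13.5, 15.8 and 13.2 against 0.623, 1.13 and 4.44 (2.51 ± 0.37, adjusted p = 0.000115). Of 13 tested members of a list of integrin chains, which also holds their ligand Icam1, 5 were higher (4 without both replicate 3 libraries) and 1 lower. The latter was Itgb3 (-1.02 ± 0.28, adjusted p = 0.0206), a call lost without Treg replicate 1, Treg replicate 2 or Tconv replicate 2.

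The tested genes of the helper lineages, which conventional cells express on differentiation, were mostly higher in Treg. The counts of genes called higher were 8 of 12 for Th1, 5 of 7 for Th2, 5 of 6 for Th17 and 11 of 14 for follicular helper (Tfh) genes, with 1 lower in all, the Th1 gene Ly6c2 (-0.83 ± 0.23), a call lost without Treg replicate 1, Treg replicate 2 or Tconv replicate 2. None of these counts differed without both replicate 3 libraries. With single libraries left out, the Th1 count was 7 without Treg replicate 1, Treg replicate 2, Tconv replicate 1 or Tconv replicate 2. The Tfh count was 9 without Tconv replicate 1 and 10 without Treg replicate 2, Treg replicate 3 or Tconv replicate 2. The Th2 and Th17 counts each stayed at 5. Over all tested genes 9.39% were called higher. Members under the filter were not tested, among them Il17a, Il17f and Il22 of Th17, where 6 of 12 entries were tested. Others were Il4, Il5 and Il13 of Th2, Il21 of Tfh and Gzmb of Th1. The members left could pass the filter through Treg alone, so the counts do not describe whole helper programmes. In the Th1 list Tbx21 (T-bet), its master factor, was at 2.40, 2.77 and 3.10 against 0.563, 0.475 and 1.05 (1.16 ± 0.22, adjusted p = 0.00106), and the granule gene Nkg7 at 36.5, 34.9 and 27.3 against 2.09, 1.84 and 8.999 (2.92 ± 0.41, adjusted p = 7.12e-05). Ifng, which encodes interferon-gamma, was at 13.3, 19.0 and 10.9 against 0.690, 1.11 and 2.73 (2.67 ± 0.49, adjusted p = 0.000872). The receptor gene Il12rb1 was at 11.2, 10.8 and 10.3 against 0.374, 0.872 and 3.26 (2.41 ± 0.33, adjusted p = 5.12e-05), and the IL-18 receptor genes Il18r1 and Il18rap were higher by 1.46 ± 0.27 and 1.82 ± 0.29. Il1rl1 (ST2), the receptor for IL-33 and on the Th2 list, was at 9.04, 7.97 and 7.61 against 0.0844, 0.128 and 1.15 (2.74 ± 0.20, adjusted p = 1.3e-06). From the Th17 list Ahr, a ligand-activated transcription factor, was higher by 1.79 ± 0.21. P2rx7, a receptor for extracellular ATP on the Tfh list, was at 34.7, 37.6 and 33.3 against 2.67, 3.94 and 12.4 (2.53 ± 0.36, adjusted p = 8.73e-05).

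Of 12 tested T cell cytokine genes 6 were higher and 2 lower (Cd40lg alone without Treg replicate 1, Treg replicate 2 or Tconv replicate 2), and 13 more, among them Il2, Il4 and Il10, were under the filter. Ebi3, a subunit of IL-35, was at 10.3, 8.54 and 8.86 in Treg and at 0.0244, 0.133 and 2.19 in Tconv (2.72 ± 0.34, adjusted p = 2.59e-05). Tnfsf11 (RANK ligand) was at 21.5, 21.4 and 18.6 against 1.27, 2.17 and 5.46 (2.58 ± 0.31, adjusted p = 2.27e-05), and Lta at 42.3, 40.1 and 39.9 against 9.78, 9.497 and 15.9 (1.75 ± 0.24, adjusted p = 5.42e-05). Tnfsf14 (LIGHT) differed by 2.01 ± 0.31, adjusted p = 0.000149. Cd40lg, through which helper cells activate B cells, was lower, at 13.5, 14.5 and 25.5 against 59.99, 74.3 and 52.6 (-1.79 ± 0.25, adjusted p = 6.47e-05). Among 17 receptors for polarising cytokines 9 were higher and 0 lower, including the decoy receptor gene Il1r2, at 4.58, 4.08 and 4.96 against 0.0603, 0.0719 and 1.36 (1.99 ± 0.26, adjusted p = 3.35e-05), and Il10ra (1.69 ± 0.23).

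Some metabolic and housekeeping groups had no calls. In limma 0 of 22 genes of oxidative phosphorylation, 0 of 20 of cholesterol synthesis and 0 of 22 cytosolic ribosomal protein genes were called, with medians of 0.05, -0.08 and -0.18. An unadjusted p under 0.05 was found for 0, 1 and 2 of them. All 22 ribosomal protein genes were below 0, and quantile normalization moved their median to -0.02, with 1 called higher and 2 lower. The other groups below held shares of higher genes above the 9.39% of all tested genes, from small counts. Glycolysis had 3 of 18 higher: the glucose transporter Slc2a3 (1.39 ± 0.20, adjusted p = 0.000106), the lactate exporter Slc16a3 (1.09 ± 0.18, adjusted p = 0.00025) and the first enzyme Hk2 (0.90 ± 0.15, adjusted p = 0.000297). The remaining 15 were not called, and the median of 0.11 became -0.03 with quantile normalization. In the cell cycle list 4 of 23 were higher (3 without both replicate 3 libraries). Tk1, thymidine kinase, was at 12.9, 11.7 and 10.4 in Treg and at 0.714, 1.16 and 3.48 in Tconv (2.31 ± 0.30, adjusted p = 3.76e-05). Mki67, the Ki-67 antigen, was at 2.07, 2.25 and 2.11 against 0.584, 0.946 and 1.08 (0.76 ± 0.15, adjusted p = 0.00117), so both groups were low. The count was 2 without Treg replicate 1, Treg replicate 2 or Tconv replicate 1. Of 26 type I interferon response genes 5 were higher, led by Gbp3 (2.48 ± 0.32, adjusted p = 3.47e-05) and Gbp5 (1.85 ± 0.28, adjusted p = 0.000143), and 1, Oas2, was lower (-1.42 ± 0.33, adjusted p = 0.00604). In the GIMAP family of lymphocyte GTPases 1 of 8 was higher, Gimap7 (1.12 ± 0.22). Of 15 DNA methylation and Polycomb genes 2 were higher, Ezh2 (0.73 ± 0.19, adjusted p = 0.0121) and Uhrf1 (0.61 ± 0.19, adjusted p = 0.0499), of which Ezh2 was not called without both replicate 3 libraries (adjusted p = 0.101) or without Tconv replicate 1. Uhrf1 was called among single omissions only without Tconv replicate 3. Of 7 SLAM family genes 2 were higher, Slamf1 (1.62 ± 0.21) and Slamf7 (0.76 ± 0.19), the latter lost without Treg replicate 3 or Tconv replicate 1.

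**Figure D3:**
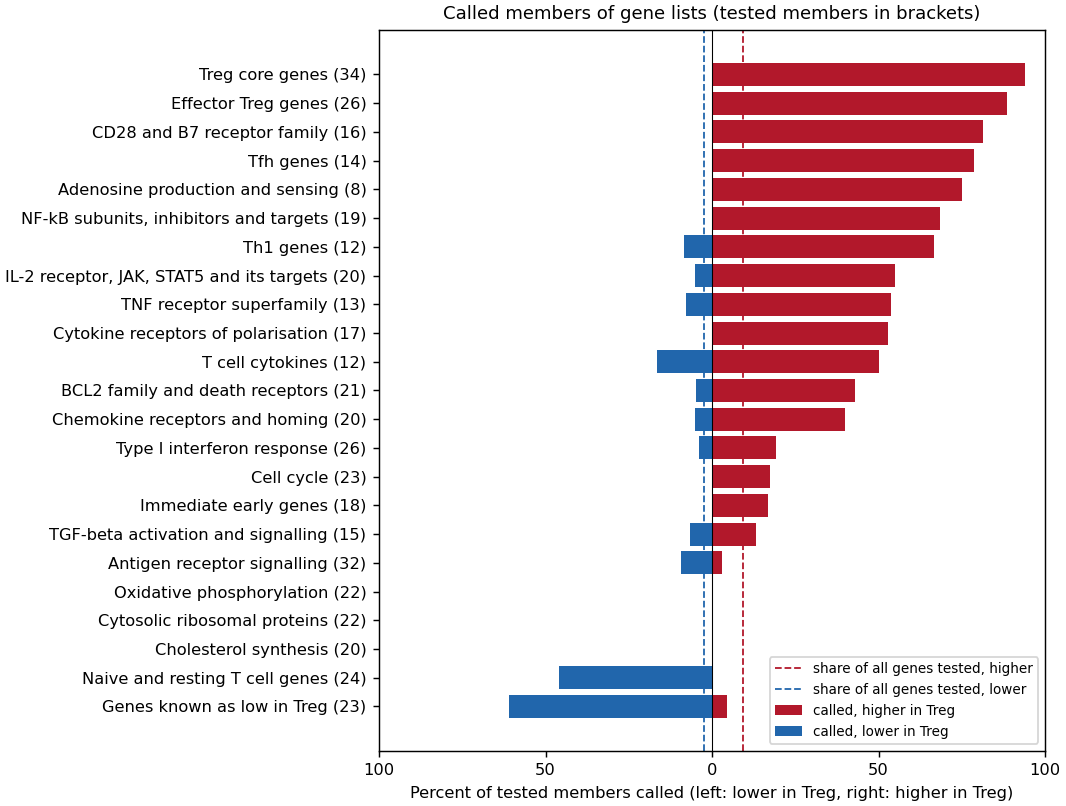
Percent of the tested members of each gene list called higher (red, to the right) and lower (blue, to the left) in CD28-deficient Nrp1+ Treg, with the number tested in brackets. Dashed lines mark the shares over all 11673 tested genes, 9.39% higher and 2.42% lower. The Treg core list has 32 of 34 higher, while the lists of oxidative phosphorylation, ribosomal proteins and cholesterol synthesis have 0 called.

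The same comparison was made in the libraries labelled wild type, which share no library with the CD28-deficient groups. Both comparisons estimated the spread from all 18 libraries, so their errors are not separate. With only the wild type groups in the model 1259 genes were called in wild type. Over 12113 genes tested in both genotypes together, wild type Nrp1+ Treg differed from wild type Tconv in 1537 genes (12.7%), 1019 higher (8.41%) and 518 lower (4.28%). Among the 11673 genes of the CD28-deficient test, 837 were called higher in both genotypes, which is 76.4% of the calls in CD28-deficient cells and 90.6% of those in wild type. For lower genes 257 were shared, 90.8% and 52.1%. Of the 1096 genes called higher, 98.7% had the same sign in wild type, as had 100% of the 283 called lower. The median difference was 1.20 in CD28-deficient and 1.06 in wild type cells over the genes called higher, and -0.99 and -1.17 over those called lower. Across the 11673 genes Pearson's r of the differences was 0.804 and Spearman's rho 0.838, as a description over genes, which are not independent. The genes with opposite calls were Ccl5 and Itga7, of which Itga7 was not called in CD28-deficient cells without both replicate 3 libraries (adjusted p = 0.0759).

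Some genes passed the test in CD28-deficient cells and not in wild type, without a call for the difference between genotypes. For S100a4 the wild type difference was 1.05 ± 0.39, adjusted p = 0.104, and the difference between genotypes 2.72 ± 0.56, adjusted p = 0.0955. For Ifng the wild type difference was -0.38 ± 0.50, adjusted p = 0.791, and that between genotypes 3.05 ± 0.70, adjusted p = 0.186. Lag3 gave 0.82 ± 0.28, adjusted p = 0.068 in wild type and 1.47 ± 0.40, adjusted p = 0.462 between genotypes. Without both CD28-deficient replicate 3 libraries the difference between genotypes was called for S100a4 (3.37 ± 0.55, adjusted p = 0.0204) and Lag3 (1.91 ± 0.36, adjusted p = 0.0428), and not for Ifng (3.55 ± 0.78, adjusted p = 0.12).

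**Figure D4:**
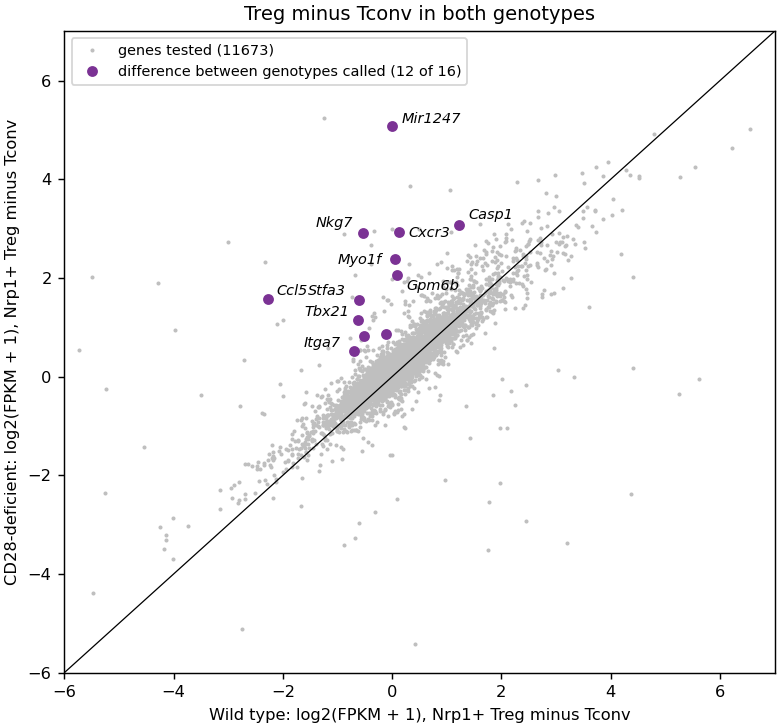
Difference between Nrp1+ Treg and Tconv (log2(FPKM + 1)) in CD28-deficient cells (y axis) against wild type cells (x axis), each point 1 of 11673 tested genes, with a line where both are equal. Purple points are 12 of the 16 genes whose difference between genotypes was called, the other four being under the filter of the CD28-deficient comparison. All lie above the line, with Mir1247 highest.

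Whether the Treg to Tconv difference itself depended on genotype was tested as an interaction over 12113 genes. It was called for 16 genes (0.132%), all with a higher signed Treg minus Tconv value in CD28-deficient cells, and 253 had an unadjusted p under 0.05. The CD28-deficient minus the wild type difference was -1.54 ± 1.05 for Foxp3, 0.11 ± 1.06 for Ikzf2, -1.31 ± 0.92 for Il2ra and 0.41 ± 0.84 for Ctla4, and none of these was called. For Lrrc32 it was -1.60 ± 1.04 and for Pdlim4 1.10 ± 0.80, also not called. All but that of Pdlim4 depended on CD28-deficient Tconv replicate 3. Without it they were -0.11 ± 0.34 for Foxp3, 1.43 ± 0.57 for Ikzf2, -0.12 ± 0.44 for Il2ra, 1.51 ± 0.37 for Ctla4, -0.20 ± 0.37 for Lrrc32 and 0.94 ± 0.87 for Pdlim4. For Pdlim4 it was -0.09 ± 0.40 without both replicate 3 libraries. None of these was called without Tconv replicate 3, the smallest adjusted p being 0.199 for Ctla4. Among the genes called in that fit were Il2rb (2.16 ± 0.37, adjusted p = 0.0159), Nrn1 (2.41 ± 0.37, adjusted p = 0.00949) and Serpina3g (1.65 ± 0.32, adjusted p = 0.034). With all libraries their values were 1.12 ± 0.80, 1.66 ± 0.63 and 0.91 ± 0.59, not called. Without both replicate 3 libraries Il2rb and Nrn1 were called (adjusted p = 0.0228 and 0.0166) and Serpina3g was not (adjusted p = 0.0684). Of 15 Th1 genes in the test with all libraries 5 were called, Ccl5, Nkg7, Cxcr3, Gzmk and Tbx21. The Th1 list had 8 of 12 higher and 1 lower in CD28-deficient cells, and 1 of 15 higher and 6 lower in wild type, counts whose difference was not tested. Cxcr3 was at 38.6, 32.0 and 43.6 in wild type Treg and 42.5, 35.2 and 27.2 in wild type Tconv, against the CD28-deficient values of 35.7, 33.9 and 36.1 and 1.78, 2.64 and 9.52 (2.80 ± 0.50, adjusted p = 0.0349). Treg of both genotypes and wild type Tconv thus overlapped, and CD28-deficient Tconv lay below them. Nkg7 showed the same pattern, at 24.7, 17.5 and 30.4 in wild type Treg and 54.8, 29.9 and 25.6 in wild type Tconv (3.46 ± 0.58, adjusted p = 0.0226). Ccl5, a chemokine of memory and cytotoxic cells, was at 381, 132 and 82.7 in wild type Tconv and 42.9, 28.7 and 27.5 in wild type Treg. In CD28-deficient cells it was at 14.7, 19.1 and 13.7 in Treg and 3.81, 3.28 and 7.55 in Tconv (3.85 ± 0.64, adjusted p = 0.0205).

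Outside the Th1 list, Myo1f, a myosin of haematopoietic cells, was at 11.02, 9.62 and 8.18 in CD28-deficient Treg and 0.717, 0.706 and 1.80 in CD28-deficient Tconv. The wild type values were 13.7, 10.7 and 10.01 in Treg and 13.8, 11.2 and 8.34 in Tconv (2.33 ± 0.33, adjusted p = 0.00888). Casp1, the protease that matures IL-1 beta, was at 19.3, 14.2 and 13.9 against 0.579, 0.694 and 1.85 in CD28-deficient cells and at 21.7, 20.7 and 25.6 against 10.1, 8.58 and 8.65 in wild type (1.85 ± 0.34, adjusted p = 0.0418). It was therefore higher in Treg in both genotypes. Il21, a cytokine of Tfh cells, and Gzmk, a granzyme, were at or near 0 in both CD28-deficient groups. Their wild type Tconv values were 1.31, 2.61 and 1.51 for Il21 (1.27 ± 0.19, adjusted p = 0.0108) and 9.75, 3.84 and 3.56 for Gzmk (2.43 ± 0.37, adjusted p = 0.0108). The calls were sensitive to the model: 3 genes were called with a pseudocount of 0.1 and 2 with the model restricted to the 4 compared groups, and between 7 and 36 when 1 library was left out. Without both CD28-deficient replicate 3 libraries 28 genes were called, among them all 16.

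**Figure D5:**
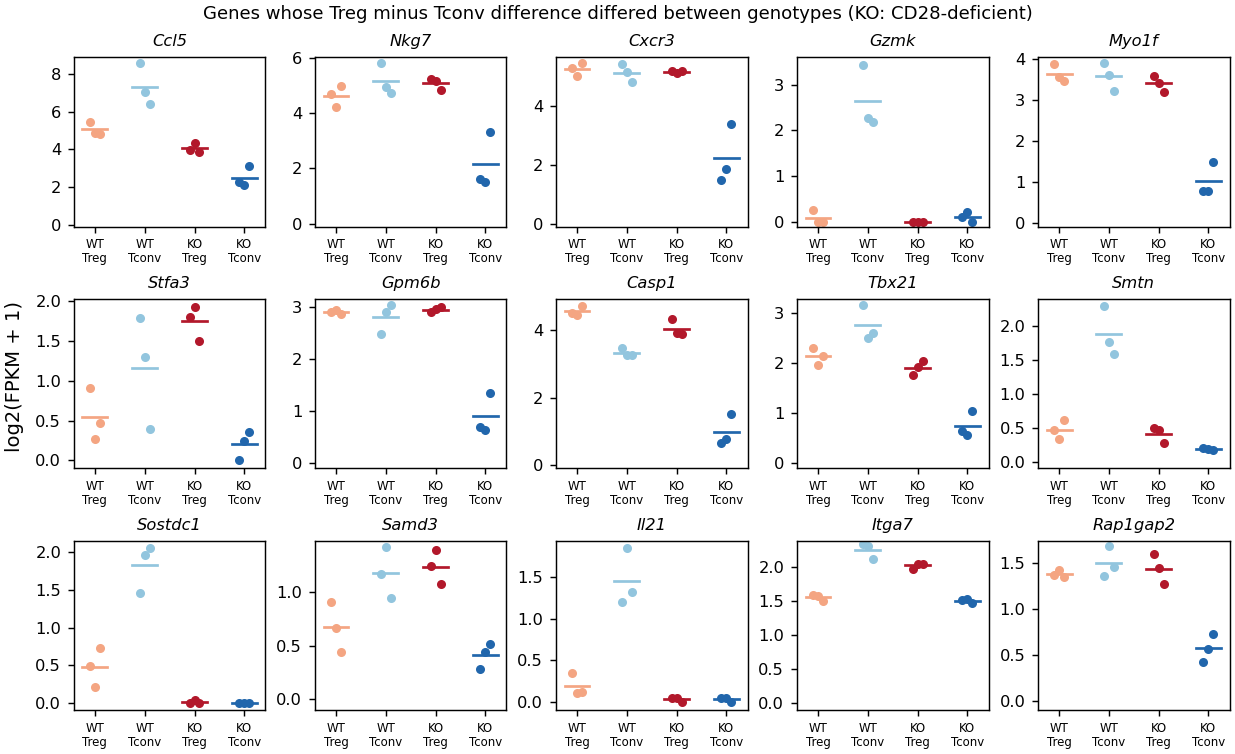
Level (log2(FPKM + 1), y axis) of 15 of the 16 genes whose Treg minus Tconv difference was called as differing between genotypes, in the 3 libraries of wild type (WT) and CD28-deficient (KO) Nrp1+ Treg and Tconv. Points are libraries and bars are group means. For Cxcr3, Nkg7, Myo1f and Gpm6b the CD28-deficient Tconv libraries lie below the other three groups, while Gzmk, Smtn, Sostdc1 and Il21 are high in wild type Tconv alone.

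The largest such difference was at Mir1247 (5.08 ± 0.16, adjusted p = 7.55e-12), a microRNA locus that lies outside the rule for named genes and was picked once its values were known. The files list it at 39.5, 31.8 and 28.0 in CD28-deficient Nrp1+ Treg and at 0 in the other 15 libraries, so no fold is given. The model shares 1 spread over all 18 libraries, and groups at 0 have none. The SE and adjusted p for Mir1247 therefore rest mostly on those groups and do not measure the spread of replicates. Its mature products, from RefSeq on GRCm38.p6, are shown 5′ to 3′ with the seed (bases 2 to 8), which pairs with targets, in capitals. The values are of the locus and do not measure these products separately.
mmu-miR-1247-5p, chr12:110278094-110278115, minus strand: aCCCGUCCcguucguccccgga
mmu-miR-1247-3p, chr12:110278058-110278078, minus strand: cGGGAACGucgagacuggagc
The seeds of the arms differ. The hairpin (chromosome 12, 110278048 to 110278129) lies in a first exon of the long noncoding RNA gene Dio3os (110275385 to 110278172) on the same strand. Dio3os was at 1.24, 0.908 and 0.941 in CD28-deficient Nrp1+ Treg and at 0.0409, 0.0743 and 0.344 in Tconv. In wild type it was at 1.12, 1.15 and 1.60 in Nrp1+ Treg and at 0.206, 0.0378 and 0.118 in Tconv. The transcript around Mir1247 was thus higher in Nrp1+ Treg than in Tconv in every library of both genotypes, while Mir1247 had a value above 0 in CD28-deficient cells alone. How the authors' tool divides reads between these overlapping loci was not tested. Overlap also limits other genes: exons of Foxp3, Nfkb2, Cxcr5, Cd247 and Tk1 overlap those of a neighbouring coding gene on the opposite strand (Ccdc22, Psd, Bcl9l, Pou2f1 and Afmid), and the sources used here do not state a strand setting.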

How the data were processed

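RNA sequencing of total RNA from 18 libraries of sorted mouse spleen T cells was used (NEBNext Ultra libraries and single reads of 50 bases, per the labels), of which 6 form the CD28-deficient Nrp1+ Treg and Tconv groups. The authors deposited 1 FPKM value per gene symbol and library, inferred as FPKM from the tool and the values, since the files name no unit. Per the submitters' processing notes, the build was GRCm38 and the tools included Cufflinks, TopHat2 2.0.11 and Trimmomatic 1. The sources used here do not state the annotation or strand setting. The deposited values hold no counts, and their low steps did not give whole reads, so depth is unknown and no intervals are given.

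Values were transformed as log2(FPKM + 1) and analysed in limma 3.58.1 (R 4.3.3) with a variance trend, 1 mean per group and all 18 libraries (12 residual degrees of freedom, median prior degrees of freedom 4.58). Tests were two-sided, with Benjamini-Hochberg adjustment over all tested genes at 0.05. Tested genes reached 1 FPKM in 3 or more of the 6 libraries (3 of 12 for wild type and for the difference between genotypes). The gene set stayed the same where libraries were left out. The code was tested on simulated data.

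The comparison and 43 gene lists (750 entries, 740 in the files) were chosen with earlier results of these data known, so their counts and medians are descriptions. Named genes were Foxp3, Nrp1 and Cd28, the 15 largest called each way without overlap between groups, at most 6 called genes per list by size, the 6 largest differences between genotypes, and 19 fixed genes. Unnamed models, receptor segments, small RNAs and pseudogenes were left out. Genes outside this rule that the text names were chosen after their values were seen: these are list members that were not called or fell beyond the 6 largest, genes called for the difference between genotypes, Mir1247 and Dio3os. Some list members counted in the totals are not reported here by name. Positions are from GENCODE M21 (GRCm38).

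Replicate numbers come from the titles. Same-numbered Treg and Tconv libraries deviated together (correlations of 0.267, 0.128 and 0.168 in CD28-deficient and 0.507, 0.279 and 0.307 in wild type cells), so the numbers were taken to pair them, and a block on the pair was an alternative. The other alternatives were a pseudocount of 0.1, no filter, no trend, the compared groups alone, quantile normalization, rescaling without microRNA and small nucleolar RNA symbols, and leaving out each library or both CD28-deficient replicate 3 libraries.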

Additional observations from a re-analysis of the deposited data

Results flagged for a closer look

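The Treg minus Tconv value was higher in CD28-deficient than in wild type cells for 16 genes by an interaction term in limma. This is a signed comparison: for Ccl5, Itga7, Gzmk, Smtn, Sostdc1 and Il21 the wild type value was below 0 and larger in size. These are log2 values of the CD28-deficient minus the wild type difference. They were 5.08 for Mir1247, 3.85 for Ccl5, 3.46 for Nkg7, 2.80 for Cxcr3, 2.43 for Gzmk, 2.33 for Myo1f, 2.16 for the cystatin gene Stfa3 and 1.96 for the membrane protein gene Gpm6b. They were 1.85 for Casp1, 1.78 for Tbx21, 1.63 for the cytoskeletal gene Smtn, 1.37 for Sostdc1, 1.33 for Samd3, 1.27 for Il21, 1.22 for the integrin gene Itga7 and 0.98 for Rap1gap2. The sign of each was the same under each alternative that could be run. Mir1247 was called in all 20 alternatives, Itga7 and Myo1f in 19 of 20, and Smtn in 18. For Mir1247 every group but CD28-deficient Nrp1+ Treg was at 0, so its p-values rest mostly on groups without spread. Casp1 was called in 4, Rap1gap2 in 5, Cxcr3 in 6 and Samd3 in 7. The adjusted p ranged over these alternatives from 0.00439 to 0.12 for Ccl5, from 0.000819 to 0.145 for Nkg7 and from 0.000147 to 0.231 for Cxcr3.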

How the results depend on the processing

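Over the alternatives, the genes called between CD28-deficient Nrp1+ Treg and Tconv (1379) numbered 2790 with quantile normalization and 2093 with the model restricted to the compared groups. They numbered 2055 after rescaling without small RNA symbols and 1862 without the filter. Leaving out 1 library gave 1071 to 1307. With the replicate block 1284 were called, 1279 of them among the 1379. Of 159 named genes 6 were not called under the block: Adk, Cd6, Dusp6, Itga5, Plxnd1 and Uhrf1. Pim2, outside that rule, was lost as well. For the difference between genotypes (16) the count was 3 with a pseudocount of 0.1, 30 without the filter, 2 with only the compared groups, 8 after rescaling without small RNA symbols, 28 without both replicate 3 libraries, 18 with the replicate block and 7 to 36 with 1 library left out. The wild type count (1537) was 3111 with quantile normalization, 2379 after rescaling, 1596 with the replicate block and 1140 to 1423 with 1 library left out. The causes were not tested. Of 159 named genes, 156 were called and 135 kept their direction and their side of the threshold under each alternative. The Cd28 difference, not called, ranged from -0.38 to 0.031 with 1 library left out, the latter without CD28-deficient Tconv replicate 2. With the model restricted to the compared groups, counts of genes called higher moved from 5 to 11 for interferon genes, 1 to 5 for antigen receptor signalling, 2 to 6 for TGF-beta, 2 to 5 for SLAM genes, 5 to 8 for integrins and 3 to 5 for immediate early genes. With 3 libraries a group and unknown depth, differences of low genes cannot be judged against counting error.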
